A study of Mus musculus with 8 samples.

Results

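The genes described are 10 mouse genes of the brain's extracellular matrix: the lecticans Acan, Bcan, Ncan and Vcan, the further chondroitin sulfate proteoglycans Cspg5 and Ptprz1, the tenascins Tnc and Tnr, the link protein gene Hapln1 and the hyaluronan synthase gene Has2. They were chosen by symbol, and their probes were found through the RefSeq accession that the array files give for each probe. All 10 were found, out of 22911 named genes with a probe, and they are covered by 16 probes of 1 spot each. Their signals were read on the 4 one-colour Agilent arrays of brain tissue, out of 8 arrays in the series. The other arrays hold T cell RNA.

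Each tissue array held RNA of slice 3 from the side of the stroke, taken at day 14, and there was 1 array for each group: DEREG mice after ischemia, wild type (WT) mice after ischemia, DEREG mice after sham surgery and WT mice after sham surgery. DEREG mice express the diphtheria toxin receptor in regulatory T cells, from a transgene driven by Foxp3 control sequences, so that toxin can remove those cells. The labels do not say whether these mice received toxin, how many animals stand behind an array, or their age and sex. With 1 array per group, no difference given here has a replicate check, and no test between groups was made. The number of arrays limits the precision. The spread that can be measured is technical. Repeated spots of a probe on the same array differed by a median SD of 0.040 to 0.045 on the log2 scale. From this variation between spots alone, a difference between arrays would have an SD of 0.059. That value holds no variation of labelling or hybridisation between arrays. It comes from repeated probes above background, whereas the member probes have 1 spot each and some are dim. The scanner's own error on member signals above background was at most 16.7% of the signal, with a median of 10.02%.

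Lecticans are large proteoglycans that bind the sugar polymer hyaluronan at one end and tenascin-R at the other, and link proteins lock them onto hyaluronan. Around many cortical neurons, chiefly fast-spiking interneurons that contain parvalbumin, this matrix condenses into perineuronal nets, lattices that surround the cell body and are known to restrain synaptic plasticity. After brain injury, astrocytes and precursors of oligodendrocytes are known to deposit chondroitin sulfate proteoglycans in the scar, where these molecules hinder the growth of axons.

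After ischemia 6 of the 10 genes had differences below 0 and 4 above 0 in both genotypes. Of all genes compared, 55.8% were below 0 in WT mice and 52.2% in DEREG mice. Few of the 10 were past 2-fold: 0 lower and 1 higher in WT mice (18.4% and 18.8% of all genes), and 1 lower and 2 higher in DEREG mice (22.1% and 22.4%). Bcan, Ncan, Cspg5 and Hapln1 were 1.47-fold, 1.73-fold, 1.64-fold and 1.78-fold lower in WT ischemia than in WT sham. Vcan was 1.70-fold higher, Tnc at least 1.57-fold and Has2 at least 2.10-fold higher, where "at least" marks a lower bound because the probe was not well above background after sham surgery. In DEREG mice the same contrast gave 2.64-fold lower Hapln1, 3.10-fold higher Vcan and at least 3.18-fold higher Tnc. Between the ischemic slices, DEREG over WT, Has2 was 2.72-fold and Tnc 1.91-fold higher, and Hapln1 1.65-fold lower. Has2 was also at least 3.27-fold higher in DEREG than in WT tissue after sham surgery, and with another background correction (normexp) its difference after ischemia was 0.58 on the log2 scale, under 2-fold.

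Signals below are the processed intensity of the probe, which compares arrays for 1 probe and does not compare genes with each other. Differences are on the log2 scale, after each array was divided by its 75th percentile signal, which lay between 411.4 and 439.4 on the 4 arrays. In whole tissue, fewer cells of a type and less RNA per cell cannot be told apart.

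**Figure D1:**
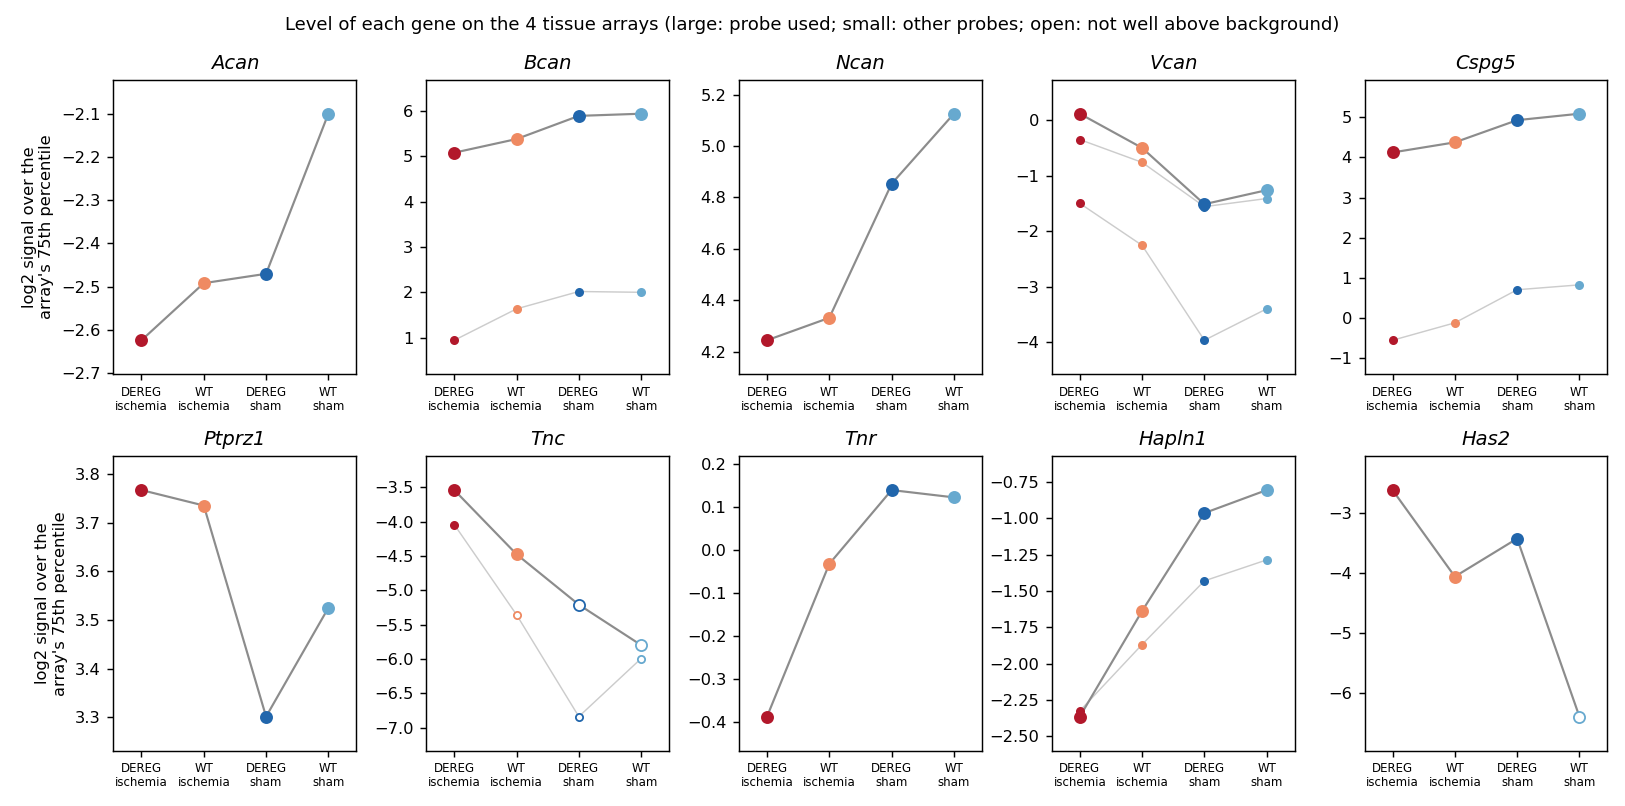
Level of each of the 10 genes on the 4 tissue arrays, with the array on the x axis and, on the y axis, the log2 signal over the array's 75th percentile (each panel has its own scale). Large points are the probe used and small points the gene's other probes, open points were not well above background, and lines join the arrays of 1 probe; for Acan, Bcan, Ncan, Cspg5, Tnr and Hapln1 both ischemia arrays lie below both sham arrays.

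Among the lecticans, Acan, which encodes aggrecan, the lectican most closely tied to perineuronal nets, had signals of 67.1 in DEREG ischemia and 74.7 in WT ischemia, against 79.3 in DEREG sham and 95.9 in WT sham. WT sham stood highest, and the other 3 arrays followed each other within the scanner's error, meaning that the scaled signals plus and minus that error overlapped. Its differences were -0.15 in DEREG ischemia against DEREG sham, within that error, and -0.39 in WT ischemia against WT sham, both under 2-fold. Bcan, encoding brevican, an abundant lectican of the adult brain, had signals of 13970 in DEREG ischemia and 17484 in WT ischemia, against 26048 in DEREG sham and 25209 in WT sham. Both ischemia arrays were below both sham arrays, the DEREG ischemia array was lowest, and the sham arrays lay within the scanner's error of each other. The differences were -0.81 in DEREG mice and -0.56 in WT mice. A second Bcan probe gave 795.0 and 1305 in DEREG and WT ischemia, against 1779 and 1646 in DEREG and WT sham, differences of -1.07 in DEREG mice, past 2-fold where the first probe was not, and -0.37 in WT mice, smaller than that of the first probe.

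Ncan, encoding neurocan, a lectican made by neurons and by astrocytes after injury, had signals of 7835 in DEREG ischemia and 8458 in WT ischemia, against 12695 in DEREG sham and 14361 in WT sham. The groups separated by surgery, and within each surgery the genotypes were within the scanner's error. The differences were -0.61 in DEREG mice and -0.79 in WT mice. Vcan, encoding versican, a lectican found in white matter and in many tissues outside the brain, went the other way, with signals of 449.6 in DEREG ischemia and 298.0 in WT ischemia, against 154.1 in DEREG sham and 171.9 in WT sham. DEREG ischemia was highest and clear of WT ischemia, which was clear of both sham arrays. The differences were 1.63 in DEREG mice and 0.76 in WT mice. All 3 Vcan probes had the same order of the ischemia arrays over the sham arrays: the other probes gave 2.47 and 1.21 in DEREG mice and 1.15 and 0.65 in WT mice.

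The link protein gene Hapln1 had signals of 80.3 in DEREG ischemia and 135.0 in WT ischemia, against 225.1 in DEREG sham and 235.2 in WT sham. The DEREG ischemia array was lowest, WT ischemia lay between it and the sham arrays, and the sham arrays were within the scanner's error. The differences were -1.40 in DEREG mice and -0.83 in WT mice. A second Hapln1 probe gave smaller differences of the same sign, -0.89 and -0.58. Has2, one of the enzymes that extrude hyaluronan through the cell membrane, had signals of 67.8 in DEREG ischemia, 25.3 in WT ischemia and 41.1 in DEREG sham, and 4.9, not well above background, in WT sham. Its order did not follow surgery, since DEREG sham exceeded WT ischemia. The differences were 0.81 in DEREG mice, measured on both arrays, and at least 1.07 in WT mice.

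Each lectican gene has a link protein gene as its neighbour on the chromosome, with no protein-coding gene between them: Acan and Hapln3 on chromosome 7, Bcan and Hapln2 on chromosome 3, Ncan and Hapln4 on chromosome 8, and Vcan and Hapln1 on chromosome 13. Vcan was higher and Hapln1 lower after ischemia in both genotypes. The other neighbours were Hapln3, at 0.91 in DEREG mice and 0.70 in WT mice, Hapln2, at 0.17 and 0.00, and Hapln4, at -3.73 and -2.20. Acan and Hapln3 also differed in direction, with Acan at -0.15 in DEREG mice, within the scanner's error, and -0.39 in WT mice. Bcan, beside Hapln2, was at -0.81 and -0.56. Hapln4, a link protein of perineuronal nets, had signals of 32.1 in DEREG ischemia and 95.0 in WT ischemia, against 451.6 in DEREG sham and 426.7 in WT sham, a larger decrease than that of any of the 10 genes.

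The bases upstream of Vcan and Hapln1 are shown because these neighbours are both among the 10 genes and differed in direction. Those of Tnc, higher after ischemia like Vcan, are shown because it carries the letters of a TATA box just before its start. The printed windows are the 250 bases before the start, 5′ to 3′ on the gene's strand, from RefSeq on build GRCm38.p6: Vcan at chr13:89742513-89742762 on the minus strand, Hapln1 at chr13:89540386-89540635 on the plus strand, and the second of 2 Tnc windows at chr4:64046937-64047186 on the minus strand. Capitals mark every match, on either strand, to one of the following 3 motifs. The letters TATAA were taken for a TATA box. The letters CCAAT were taken for a box of that name. The letters GGGCGG were taken for a GC box.
Vcan: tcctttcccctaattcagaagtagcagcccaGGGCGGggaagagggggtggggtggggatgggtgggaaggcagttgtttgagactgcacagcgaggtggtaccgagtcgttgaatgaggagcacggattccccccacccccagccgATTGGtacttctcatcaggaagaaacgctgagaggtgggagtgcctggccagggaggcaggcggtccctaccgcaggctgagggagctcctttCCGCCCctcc
Hapln1: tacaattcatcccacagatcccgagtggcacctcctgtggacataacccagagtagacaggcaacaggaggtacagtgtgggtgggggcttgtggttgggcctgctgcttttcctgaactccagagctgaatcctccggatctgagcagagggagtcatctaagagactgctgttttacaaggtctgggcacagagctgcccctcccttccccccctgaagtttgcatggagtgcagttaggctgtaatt
Tnc: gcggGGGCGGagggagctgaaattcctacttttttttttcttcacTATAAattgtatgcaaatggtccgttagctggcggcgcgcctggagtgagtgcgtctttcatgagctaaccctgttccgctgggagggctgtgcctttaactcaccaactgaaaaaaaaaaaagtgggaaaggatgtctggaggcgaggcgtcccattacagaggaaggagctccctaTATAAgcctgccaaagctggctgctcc
The Vcan window held GC boxes at positions -219 and -10, counted back from the start, and a CCAAT box at -103, the Hapln1 window held none of these motifs, and the Tnc window held TATA boxes at -205 and -27 and a GC box at -246. Of the 10 genes, 8 had a promoter in the RefSeq table, with 9 windows; Cspg5 and Has2 did not. A GC box was in 7 of the 9 windows, against 32.7% of the 32851 promoter windows of the table, a CCAAT box in 3 (33.8% of all) and a TATA box in 3 (22.8% of all). Tnc is counted with both of its windows, which overlap and share a GC box and a TATA box. The windows with a GC box ran from 44.8% (Tnc) to 74.4% (Acan) in their share of G and C, where the median of all windows was 52.4%. Whether the motifs are more frequent than that share would give was not tested. The letters TGANTCA (an AP-1 motif, in 6.75% of all windows) and TTCNNNGAA (a STAT motif, in 7.02%) were in none of the 9. These matches describe the letters of these windows only.

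Of the other chondroitin sulfate proteoglycans, Cspg5, encoding neuroglycan C, a transmembrane proteoglycan with an EGF-like domain, had signals of 7216 in DEREG ischemia and 8730 in WT ischemia, against 13388 in DEREG sham and 14016 in WT sham. The groups separated by surgery and, within a surgery, the genotypes were within the scanner's error. The differences were -0.80 in DEREG mice and -0.71 in WT mice. A second, dimmer Cspg5 probe gave -1.26 and -0.95. Ptprz1, which encodes a receptor tyrosine phosphatase of glia and its secreted form phosphacan, had signals of 5630 in DEREG ischemia and 5596 in WT ischemia, against 4333 in DEREG sham and 4736 in WT sham. Both ischemia arrays were above both sham arrays, although every neighbouring pair in this order lay within the scanner's error. The differences were 0.47 in DEREG mice and 0.21 in WT mice.

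The tenascins differed in direction. Tnr, encoding tenascin-R, the protein that ties lecticans together in nets, had signals of 315.9 in DEREG ischemia and 410.9 in WT ischemia, against 484.0 in DEREG sham and 447.9 in WT sham. The DEREG ischemia array stood below the other 3, which followed each other within the scanner's error. The differences were -0.53 in DEREG mice and -0.16 in WT mice, the second within that error. Tnc, encoding tenascin-C, a matrix protein of development and wounds, had signals of 35.6 in DEREG ischemia and 18.9 in WT ischemia, against 11.9 in DEREG sham and 7.4 in WT sham, the sham values not well above background. The differences were at least 1.67 in DEREG mice and at least 0.65 in WT mice. A second Tnc probe was above background on the DEREG ischemia array only, with signals of 25.1 there, 10.3 in WT ischemia, 3.8 in DEREG sham and 6.5 in WT sham.

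**Figure D2:**
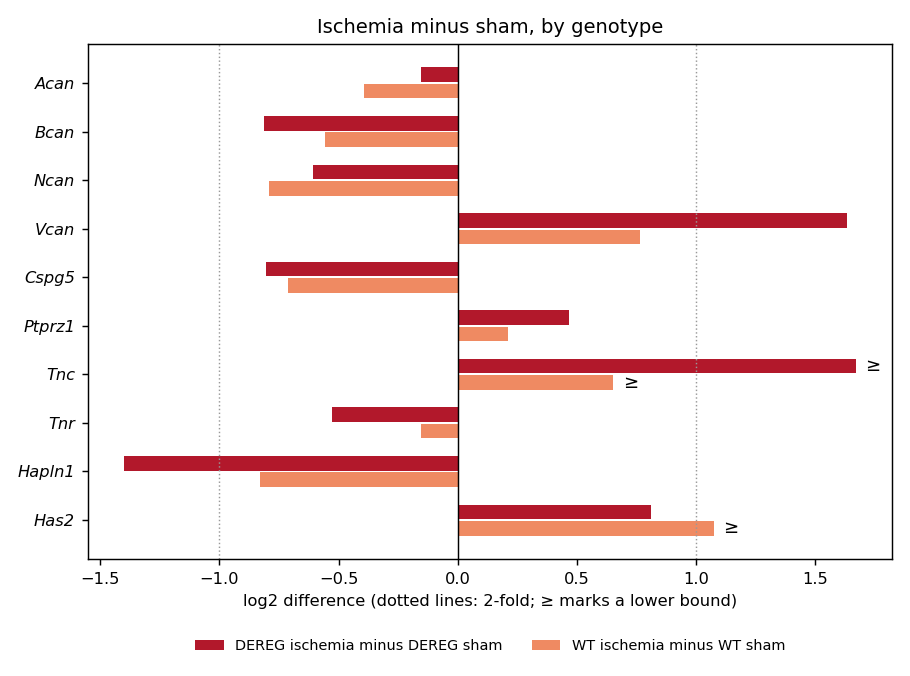
Log2 difference of ischemia minus sham for each gene (x axis) in DEREG mice and in WT mice, 1 array per group, with dotted lines at 2-fold and ≥ at lower bounds. Vcan, Ptprz1, Tnc and Has2 lie right of 0 and the other 6 genes left of it in both genotypes.

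Counted at 2-fold, 1 of the 10 genes was higher in WT ischemia than in WT sham (Has2) and 0 were lower, whereas 18.8% of the 16973 genes compared were higher and 18.4% lower. In DEREG ischemia against DEREG sham, 2 of 10 were higher (Vcan and Tnc) and 1 lower (Hapln1), beside 22.4% and 22.1% of 17161 genes. These shares are not above those of all genes. The Has2 count in WT mice was lost with normexp background correction (0.30), quantile normalization (0.75) and median scaling (0.91), and normexp also took Tnc (0.47) and Hapln1 (-0.87) in DEREG mice under 2-fold. At 1.5-fold, a threshold added after the values were seen, 3 were higher and 3 lower in WT mice (26.2% and 31.2% of all genes), and 3 were higher and 4 lower in DEREG mice (30.9% and 32.3%). The median of the 10 genes was -0.34 in DEREG mice, where that of all genes was -0.06, and -0.27 in WT mice, where that of all genes was -0.14. Of the 8 genes above background on all 4 arrays, 6 (Acan, Bcan, Ncan, Cspg5, Tnr and Hapln1) had both ischemia arrays below both sham arrays, as did 50.5% of 15120 genes, and 2 (Vcan and Ptprz1) had both above, as did 37.8%. In the same 6 genes the DEREG ischemia array was also below the WT ischemia array. So it was in 5301 of the 7629 genes with both ischemia arrays below both sham arrays (35.1% of all). In the same 2 it was above, as in 5103 of the 5711 genes with both above (33.8% of all). For Acan, Ncan, Cspg5 and Ptprz1 the ischemia arrays lay within the scanner's error of each other.

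**Figure D3:**
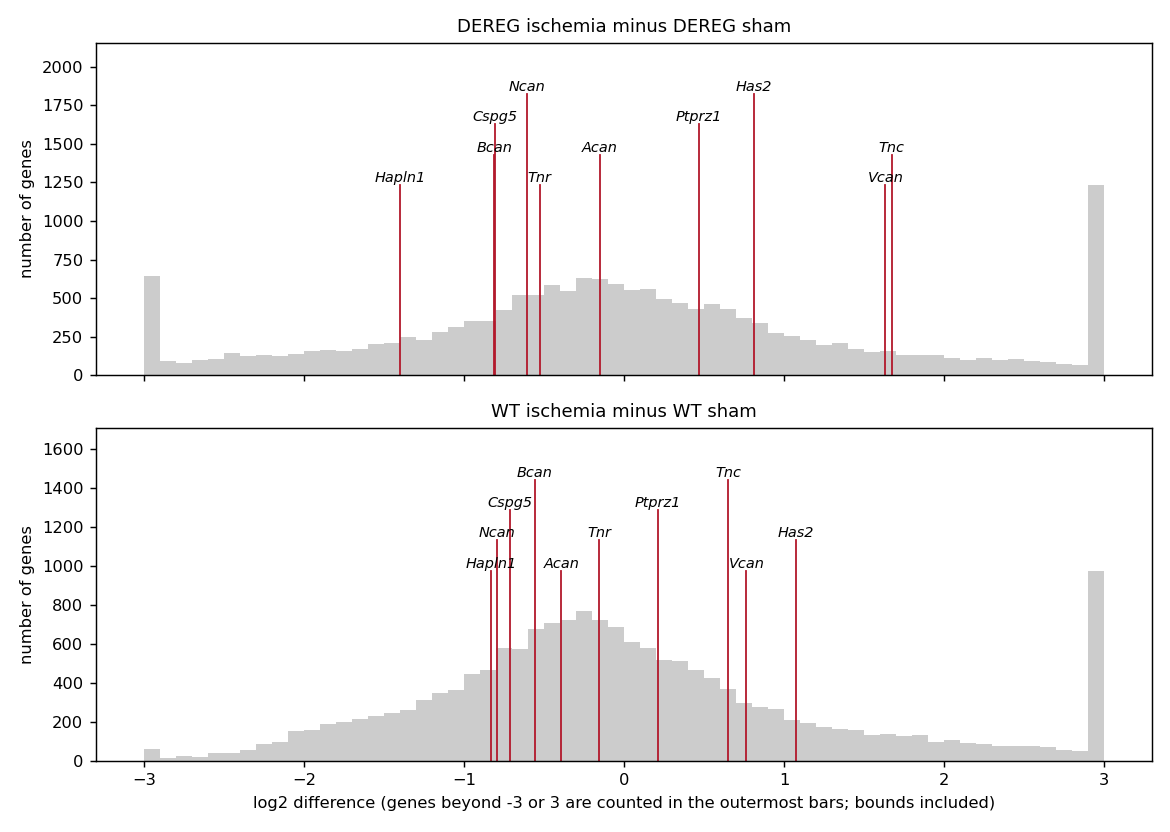
Number of genes (y axis) by log2 difference of ischemia minus sham (x axis) in DEREG mice, upper panel, and WT mice, lower panel, with the 10 genes as vertical lines whose height has no meaning. The lines of Tnc in both panels and of Has2 in WT mice stand at lower bounds, so their place among all genes is not known; the measured genes lie between -1.40 and 1.63 in DEREG mice and between -0.83 and 0.76 in WT mice.

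Genotype was compared next, DEREG over WT, within each surgery; these differences use the same arrays as the stroke differences and are no separate evidence. After ischemia 4 of the 10 genes were above 0 and 6 below 0, where 41.3% of all 16861 genes were below 0, and their median was -0.11, where that of all genes was 0.08. Has2 was higher by 1.44 on the log2 scale, a difference that 0.907% of the 16861 genes reached or exceeded, Tnc by 0.94 (2.72% of genes) and Vcan by 0.62 (6.69% of genes). The second Tnc probe gave at least 1.18, and the other Vcan probes 0.76 and 0.41. Hapln1 differed by -0.73, with -0.46 from its second probe, Tnr by -0.36, Bcan by -0.30 (second probe -0.69) and Cspg5 by -0.25 (second probe -0.43). Acan at -0.13, Ncan at -0.09 and Ptprz1 at 0.03 were within the scanner's error between these arrays, as was Cspg5. At 2-fold, 1 gene was higher and 0 lower, against 2.36% and 5.37% of all genes; at 1.5-fold, 3 were higher and 1 lower, against 7.52% and 12.1%. With quantile normalization (1.09), median scaling (1.01) or the median over probes (1.13) Tnc was past 2-fold too.

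After sham surgery 7 of the 9 compared genes were below 0, DEREG over WT, as were 51.6% of all genes, and their median was -0.16, where that of all genes was -0.01. Has2 was at least 1.71 higher in DEREG sham than in WT sham. This is a lower bound, so its place among the 16316 genes is not known. The value rests on 1 probe that was not well above background in WT sham, and with normexp it was 0.42. Has2 was the 1 of 9 compared genes past 2-fold in the higher direction (0.588% of all genes), and 0 were past it in the lower direction (0.447% of all genes). The other 8 differences ran from -0.37 for Acan, a value that 3.29% of genes were at or below, to 0.02 for Tnr. Ncan was at -0.27 (5.65% of genes at or below), Vcan at -0.25 (6.33%) and Ptprz1 at -0.22 (7.67%). The other Vcan probes gave -0.57 (1.55%) and -0.15. For Ncan, Vcan and Ptprz1 the sham arrays lay within the scanner's error of each other, and for Acan they did not. Tnc was not well above background on either sham array and was not compared.

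**Figure D4:**
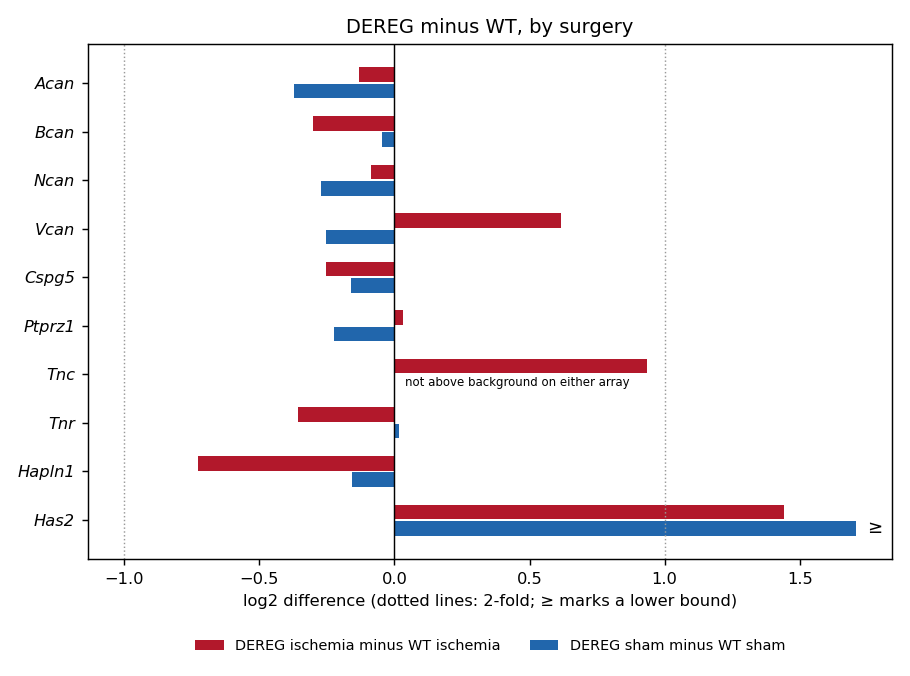
Log2 difference of DEREG minus WT (x axis) for each gene after ischemia and after sham surgery, 1 array per group, with dotted lines at 2-fold and ≥ at a lower bound. Has2 lies right of the 2-fold line after both surgeries, and Vcan lies right of 0 after ischemia and left of it after sham surgery.

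The stroke difference in DEREG mice minus that in WT mice was computed for the 8 genes above background on all 4 arrays, and it rests on the same arrays as the differences above. It was 0.87 for Vcan, a value that 1.52% of 15120 genes reached or exceeded, 0.26 for Ptprz1, 0.24 for Acan and 0.19 for Ncan, and it was -0.09 for Cspg5, -0.25 for Bcan, -0.37 for Tnr and -0.57 for Hapln1. None of the 8 was past 2-fold, against 0.906% of genes above 0 and 5.21% below. The median over the 8 was 0.05 and over all genes 0.06.

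Genes with the nearest pattern over the 4 tissue arrays were sought for Vcan and Hapln1, the members above background on all arrays whose levels spanned at least 1 on the log2 scale. Likeness was the largest absolute deviation between centred log2 profiles, over n = 4 arrays. For Vcan the nearest were Gm31872 (0.0068), Il17rb (0.031) and Gfpt2 (0.044). For Hapln1 they were Olfr124 (0.023), Dnajb3 (0.029) and Etnk2 (0.053). With 4 points many genes lie close to any profile.

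Genes around this matrix were counted from lists chosen for their role. Among hyaluronan and link genes, 9 of 17 were at least 2-fold higher and 2 lower in DEREG ischemia than in DEREG sham, and 7 of 17 were higher and 2 lower in WT ischemia than in WT sham, with medians of 1.02 and 0.70. Cd44, the main hyaluronan receptor on cells, had a signal of 712.5 in WT ischemia, against 18.6 in WT sham, a difference of 5.23. Itih2, a heavy chain of the serum protein that is transferred onto hyaluronan, differed by 4.06, and Cemip, a protein that breaks hyaluronan down, by 2.44. Cemip and Cd44 were higher in DEREG than in WT ischemia by 1.26 and 1.03, and Hapln4 differed there by -1.54. Has1, another hyaluronan synthase gene, was lower after ischemia, at -1.39 in DEREG mice and -2.25 in WT mice. Its direction was thus opposite to that of Has2. Has3 was not above background on any tissue array.

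Genes that build chondroitin sulfate chains were split in direction, with 4 of 19 higher and 2 lower at 2-fold in DEREG mice and 2 higher and 2 lower in WT mice (medians 0.03 and 0.05). Chsy3, a chondroitin synthase, was at least 8.94-fold lower in WT ischemia, B3galt6, an enzyme of the linker sugar, differed by -1.20, and Dse, the epimerase that makes dermatan sulfate, was at least 6.29-fold higher. In DEREG ischemia against WT ischemia none of 18 was past 2-fold, and the named extremes were Chst12 (at least 1.79-fold lower), Chsy1 (0.47) and B3galt6 (0.39).

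Genes for proteases that cut lecticans, with their inhibitors, were the group with the highest median among the matrix lists: 10 of 13 were higher in DEREG ischemia and 9 of 13 in WT ischemia than in sham, none were lower at 2-fold, and the medians were 2.77 and 2.37. Mmp3, a stromelysin, had a signal of 2756 in WT ischemia and 2.9, not well above background, in WT sham, a difference of at least 7.84. Timp1, a metalloproteinase inhibitor, differed by 6.12 and Mmp2, a gelatinase, by 4.86. All 13 were higher in DEREG than in WT ischemia, 3 of them past 2-fold: Mmp3 by 1.53, Timp1 by 1.42 and Adamts5, an aggrecanase, by 1.04.

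Receptors and ligands of these proteoglycans and tenascins had 2 higher and 9 lower of 16 at 2-fold in DEREG mice and 3 higher and 6 lower in WT mice, with medians of -1.08 and -0.67. Otx2, a transcription factor that net chondroitin sulfate is known to capture, was at least 4.72 higher in WT ischemia, Tlr4, an innate immune receptor, at least 2.96 and Mdk, the heparin-binding growth factor midkine, 2.19. In DEREG ischemia against DEREG sham, Otx2 was higher by 0.95, under 2-fold. It was also at least 1.16 higher in DEREG sham than in WT sham. Otx2 had a signal of 51.2 in DEREG ischemia, against 317.3 in WT ischemia, a difference of -2.61. Nptx2, a neuronal pentraxin, differed there by -1.55, and Rtn4r, the Nogo receptor, by -1.48; 5 of the 16 were lower at 2-fold in DEREG than in WT ischemia and none higher. Nptx1 was not above background on any tissue array.

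Other matrix proteoglycans, most of them found outside the brain too, had the second highest matrix list medians. At 2-fold, 14 of 24 were higher and 4 lower in DEREG mice, and 16 of 25 higher and 4 lower in WT mice, with medians of 1.25 and 1.29. Lum and Dcn, small leucine-rich proteoglycans of collagen fibres, differed by 5.82 and 4.59 in WT mice, and Sdc1, a cell surface heparan sulfate proteoglycan, by 4.05. The 4 lower genes were the same in both genotypes. They were Spock3 (-3.62 in DEREG mice and -3.28 in WT mice), Spock2 (-2.54 and -1.78), Spock1 (-1.97 and -1.54) and Gpc5 (-1.81 and -1.05). In DEREG over WT ischemia the largest were Sdc1 (1.03), Srgn, the proteoglycan of blood cell granules (0.90), and Dcn (0.85), with 1 of 25 past 2-fold. The list as a whole was not higher there: 13 of 25 were below 0. Its median was -0.002, where that of all genes was 0.08. Lum and Dcn also stand in the fibroblast marker list below.

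**Figure D5:**
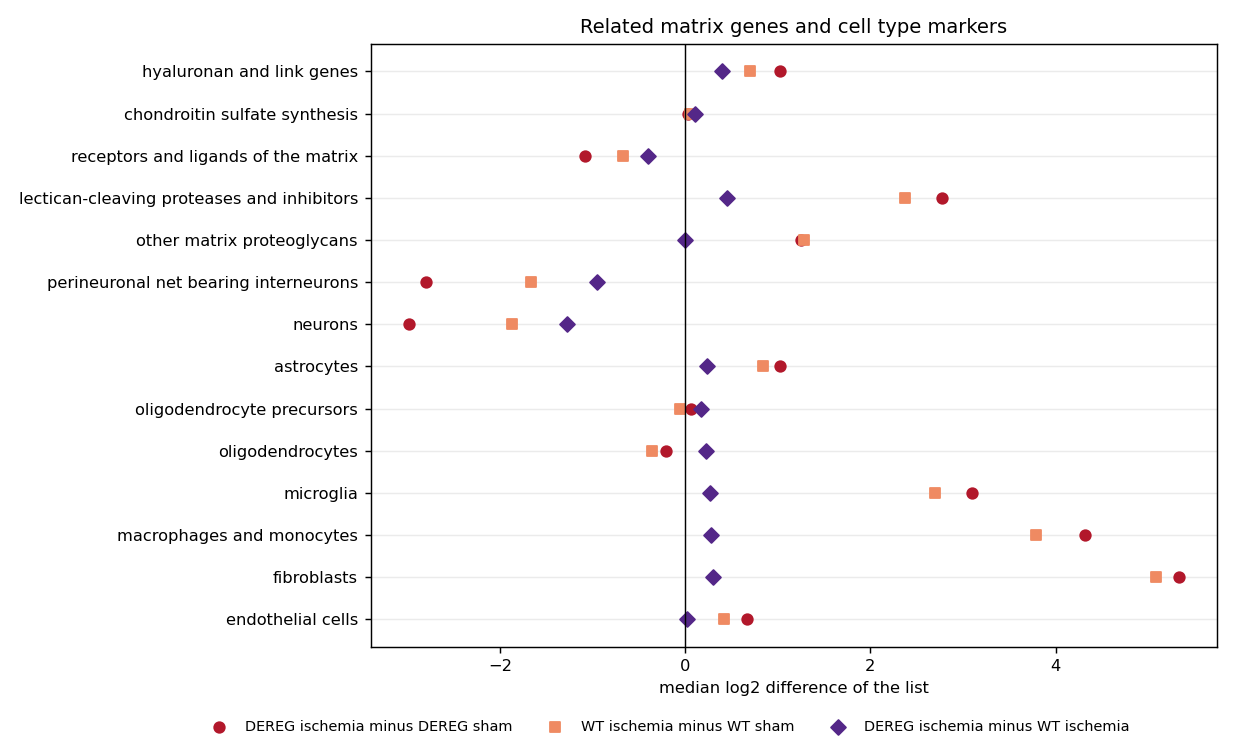
Median log2 difference (x axis) of each list of related matrix genes and each list of cell type markers, for DEREG ischemia minus DEREG sham, WT ischemia minus WT sham and DEREG ischemia minus WT ischemia, 1 array per group. Neuron and interneuron lists lie left of 0 in all 3 differences, and microglia, macrophage and fibroblast lists lie right of it.

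Markers of the cells that make or bear this matrix were measured on the same arrays. All 10 neuron markers were above background on the 4 arrays, and all 10 were at least 2-fold lower after ischemia in both genotypes, with medians of -2.98 in DEREG mice and -1.87 in WT mice; 7 of 10 were lower at 2-fold in DEREG than in WT ischemia. Their summed signal, in multiples of the array's 75th percentile, was 71.0 in DEREG ischemia and 164.5 in WT ischemia, against 534.7 in DEREG sham and 564.5 in WT sham. Nefm, a neurofilament gene, differed by -2.54 in WT mice and Slc17a7, a glutamate transporter of excitatory neurons, by -2.39. A list for interneurons that bear nets had 9 of 9 measured markers lower at 2-fold in both genotypes, with medians of -2.79 in DEREG mice and -1.66 in WT mice. It also holds Gad1 (-2.31 in WT mice), the enzyme that makes GABA, Gad2 and Slc32a1, which mark GABA neurons in general. The potassium channel gene Kcnc2 differed by -1.99 in WT mice. Pvalb, the gene of parvalbumin, differed by -1.85 in DEREG mice and -1.36 in WT mice. The summed signal of the list was 28.8 in DEREG ischemia and 49.7 in WT ischemia, against 165.0 in DEREG sham and 172.4 in WT sham. Slc32a1 had the highest signal of the list, 39689 in WT sham, and Erbb4 was not above background on any array. Whether cells with nets were fewer was not tested. The medians of both lists lay further below 0 than the differences of Acan, Bcan, Ncan, Cspg5, Tnr and Hapln1 on the same arrays.

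Among glia, 5 of 10 astrocyte markers were higher at 2-fold in DEREG mice and 4 of 10 in WT mice, and none were lower at 2-fold. The medians were 1.02 and 0.84. In each genotype 3 markers were below 0: Aldoc (-0.80 in DEREG mice and -0.66 in WT mice), Slc1a2 (-0.61 and -0.35) and S100b (-0.01 in both). The summed signal was 358.2 in DEREG ischemia and 355.5 in WT ischemia, against 374.8 in DEREG sham and 406.5 in WT sham. Aldoc had the highest signal of the list, 129729 in WT sham, and so weighs most in this sum. Vim and Gfap, intermediate filament genes of reactive astrocytes, differed by 4.75 and 3.83 in WT mice. Of 8 markers of oligodendrocyte precursors, 2 were higher at 2-fold in both genotypes, Cspg4 (1.22 in WT mice) and Pdgfra (1.14), and 4 were below 0 in both, Gpr17 (-0.42), Lhfpl3 (-0.40), Olig1 (-0.35) and Olig2 (-0.14), with list medians of 0.06 in DEREG mice and -0.06 in WT mice. The summed signals of 29.1 in DEREG ischemia and 25.5 in WT ischemia were close to 25.8 in DEREG sham and 26.1 in WT sham. Oligodendrocyte markers had medians of -0.21 in DEREG mice and -0.36 in WT mice, and endothelial markers 0.67 and 0.42.

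Markers of cells that enter or expand after injury were far higher after ischemia. Microglia markers were higher at 2-fold in 8 of 8 genes in DEREG mice and 7 of 8 in WT mice (medians 3.09 and 2.70), macrophage and monocyte markers in 9 of 10 in both genotypes (4.32 and 3.78), with the integrin gene Itgam lower, at -1.15 in DEREG mice and -0.98 in WT mice, and fibroblast markers in 7 of 8 in both (5.33 and 5.08). The part that any of these cell types has in the differences of the 10 genes was not tested.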

How the data were processed

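RNA of 8 samples was hybridised to 8 one-colour Agilent arrays of 1 slide with 1 scan time; the 4 tissue arrays were used for every comparison. Each deposited scanner file gives a linear spot intensity with its background already subtracted and no normalization across arrays, per the file headers; Agilent Feature Extraction 10.7.1.1 made it, per the submitters' processing notes. The series table the authors deposited gives a signal that equals this intensity divided by a constant close to each array's 75th percentile, in 99.95% to 99.97% of probes within 0.1%, with column medians of 0.110 to 0.123; it was used as an alternative.

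Of 56605 probes, 32994 matched 1 symbol through their RefSeq accession and 23611 stayed unnamed. Between 62.0% and 65.1% of probes were well above background on a tissue array, and no spot was saturated. Spots of 1 probe were averaged, and the log2 intensity was set against the array's 75th percentile over all probes. A gene was represented by its brightest probe and compared unless that probe was dim on both arrays; where 1 side was dim the difference is a lower bound, with the dim side raised to the lowest detected probe of its array if below it. Genes at or over 2-fold were counted. Additional genes named are, per list, the 3 largest differences in WT ischemia against WT sham and in DEREG against WT ischemia. Exceptions, added after values were seen, are the link protein genes beside a lectican gene, Itgam, Lhfpl3, Olig1, Olig2, Aldoc, Slc1a2, S100b and Pvalb. Has1, Spock1, Spock2, Spock3 and Gpc5 were also added after values were seen. The genes, lists and comparisons were chosen with earlier results of these data known.

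No test between groups was run, nor was an additive model with the interaction as its error. Alternatives were normexp background correction (offset 50, on median spot and background intensities, since the mean spot column is not in the files used), quantile normalization, scaling by the median or over detected probes, only genes measured on both arrays, no filter, the median over probes, the deposited table and a 1.5-fold count. R 4.3.3 with limma 3.58.1 and python 3.11.15 were used; the counting was tested on simulated data.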

Additional observations from a re-analysis of the deposited data

Results flagged for a closer look

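The T cell arrays were used in no comparison above, and some probes of the 10 genes were well above background there. These arrays hold CD4 T cells, from ischemic brain of WT mice at day 14 or from the spleen of untreated mice, with 1 array per group. A Hapln1 probe had a signal of 49.4 in brain Treg and 17.1 in brain nonTreg cells. The Hapln1 probe used for the tissue gave 31.8 in brain Treg cells and 9.5, not well above background, in brain nonTreg cells. A Vcan probe read 21.9 on the brain Treg array, 14.7 on the brain nonTreg array and 21.4 on the spleen Treg array. The other Vcan probes, among them the one used for the tissue, were not well above background on any T cell array. A Cspg5 probe had signals of 30.1 in spleen Treg and 22.1 in spleen nonTreg cells, and the probe used for the tissue 25.9 and 15.3. Ptprz1 had a signal of 13.02 in spleen Treg cells. All of these are raw processed intensities, and no control array without the cells exists to set them against.

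The Vcan difference between the genotypes had opposite signs by surgery: DEREG minus WT was 0.62 after ischemia and -0.25 after sham surgery. The sham arrays lay within the scanner's error of each other, so the sign after sham surgery is not resolved by this probe. With 1 array per group the difference between these values was not tested.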

How the results depend on the processing

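Of 364 differences of the 10 genes recomputed under the alternatives, 360 kept their sign. The exceptions were Ptprz1 in DEREG against WT ischemia (-0.06 with quantile normalization, 0.03 as reported), Tnr in DEREG against WT sham (-0.04 with normexp and -0.02 with median scaling, 0.02 as reported) and Cspg5 in the difference of stroke differences (0.02 with median scaling, -0.09 as reported); the cause was not tested. In WT ischemia against WT sham, the count of genes at least 2-fold higher was 0 with normexp, quantile normalization, median scaling or only genes measured on both arrays, 2 with no filter and 3 at 1.5-fold, where 3 were lower. The median there was -0.18 with normexp, -0.44 with median scaling, -0.18 with the percentile over detected probes and -0.48 with genes measured on both arrays. In DEREG ischemia against DEREG sham, 1 gene was higher with normexp and with genes measured on both arrays, and 0 were lower with normexp, 2 with the median over probes and 4 at 1.5-fold; the median was -0.53 with genes measured on both arrays. In DEREG against WT ischemia, 0 genes were higher with normexp, 2 with quantile normalization, median scaling or the median over probes, and 3 at 1.5-fold, where 1 was lower; the median was -0.040 with median scaling. In DEREG against WT sham, 0 genes were higher with normexp and with genes measured on both arrays. For the difference of stroke differences, the median was -0.11 with quantile normalization and 0.16 with median scaling, and 1 gene was lower with no filter.

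Over all genes, median scaling moved the median of WT ischemia against WT sham to -0.30, against -0.14 as reported. Normexp, which adds an offset and so shrinks differences of dim probes, counted 2293 genes higher and 2191 lower in that comparison against 3186 and 3123, 167 and 409 in DEREG against WT ischemia against 398 and 905, 11 and 2 in DEREG against WT sham against 96 and 73, and 80 and 413 in the difference of stroke differences against 137 and 788. No filter counted 784 and 1396 in DEREG against WT ischemia, 542 and 392 in DEREG against WT sham and 1083 and 1757 in the difference of stroke differences; genes measured on both arrays gave 44 and 18 for sham, and median scaling 206 above 0 in the difference of stroke differences. No paired analysis was possible because each group has 1 array. Tnc, Has2 and Acan lie nearest to background, and the number of arrays limits every value.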
